A study of Mus musculus with 12 samples.

Results

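A set of 40 genes of the cell cycle and of proliferation was followed, chosen by gene symbol from the deposited tables: cyclins and cyclin-dependent kinases (CDKs), CDK inhibitors, genes of DNA replication and genes of mitosis. All 40 were found among 14907 genes listed, and 39 of them were among 12385 genes tested. The mitotic checkpoint kinase gene Bub1 was below the filter on low values, with 5, 14 and 3 normalized reads in MyD88ko cells with LPS, 3, 9 and 1 in MyD88ko untreated cells, 2, 2 and 8 in wt cells with LPS, and 5, 5 and 5 in wt untreated cells.

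A cell enters division when D-type cyclins with CDK4 or CDK6, and then E-type cyclins with CDK2, phosphorylate the retinoblastoma protein and free E2F transcription factors, which switch on the genes of DNA replication. The inhibitor p21, made from Cdkn1a, and the inhibitors of the Ink4 and Kip families hold these kinases back, and p21 is a classic target of the tumour suppressor p53. In quiescent or arrested cells the DREAM complex keeps replication and mitotic genes low. Fibroblasts and related mesenchymal cells deprived of serum leave the cycle, so that growth in culture and its arrest are both read from these genes.

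Messenger RNA was measured as normalized counts of reads from the 3′ ends of transcripts, in 12 libraries of mesenchymal cells grown from the small intestine of C57/Bl6 mice. There were 4 groups of 3: MyD88ko cells with LPS, MyD88ko cells untreated, wt cells with LPS and wt cells untreated. LPS, lipopolysaccharide of the bacterial outer membrane, which is sensed by the receptor TLR4 through the adaptors MyD88 and TRIF, was given at 2 µg/ml for 6 hours in the LPS groups. All groups had been serum starved overnight, had been cultured to passage 3 and had been sorted on GFP. The MyD88ko genotype is labelled ColVIcre-MyD88F/F-RosamTmG, in which the ColVI promoter drives Cre in mesenchymal cells. The wt genotype is labelled MyD88F/F-RosamTmG, without Cre, although the design text speaks of Cre-positive controls. If the label is right, loss of MyD88 and presence of Cre cannot be told apart. The labels do not say that replicates were separate animals, so p-values measure the spread between these libraries, which may be technical. Untreated and LPS libraries also carry separate series of library codes, so an effect of LPS and one of the library series cannot be told apart.

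Totals of the normalized values were 3599944 to 4320551 per library. The targeted gene Myd88 had 24, 22 and 5 in MyD88ko cells with LPS and 171, 204 and 213 in wt cells with LPS, and 14, 8 and 10 in MyD88ko untreated cells against 99, 98 and 103 in wt untreated cells. All 12 mesenchymal markers were listed in every library, with summed values of 131277 to 141922 in MyD88ko cells with LPS, 89123 to 111415 in MyD88ko untreated cells, 70685 to 117346 in wt cells with LPS and 43753 to 101442 in wt untreated cells. Of 8 epithelial markers 3 had values in every library. Their sum was 390, 8 and 194 in wt untreated replicates 1, 2 and 3 and 4 to 25 in the other 9 libraries. Of the epithelial markers with values in only some tables, Cdh1 had 3, 0 and 719 and Krt18 1, 0 and 68 in wt untreated replicates 1, 2 and 3, and both stood at 0 to 3 in the other libraries that list them, so which of replicates 1 and 3 holds more epithelial RNA depends on the markers summed. Of 5 endothelial markers 0 had values in every library, and the 3 of 7 leukocyte markers that did summed to 15 to 53. The wt untreated libraries therefore stand apart from each other, and the main results against them are also given with replicate 2 alone, a lone library that is then assumed to vary like those of the other groups.

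**Figure D1:**
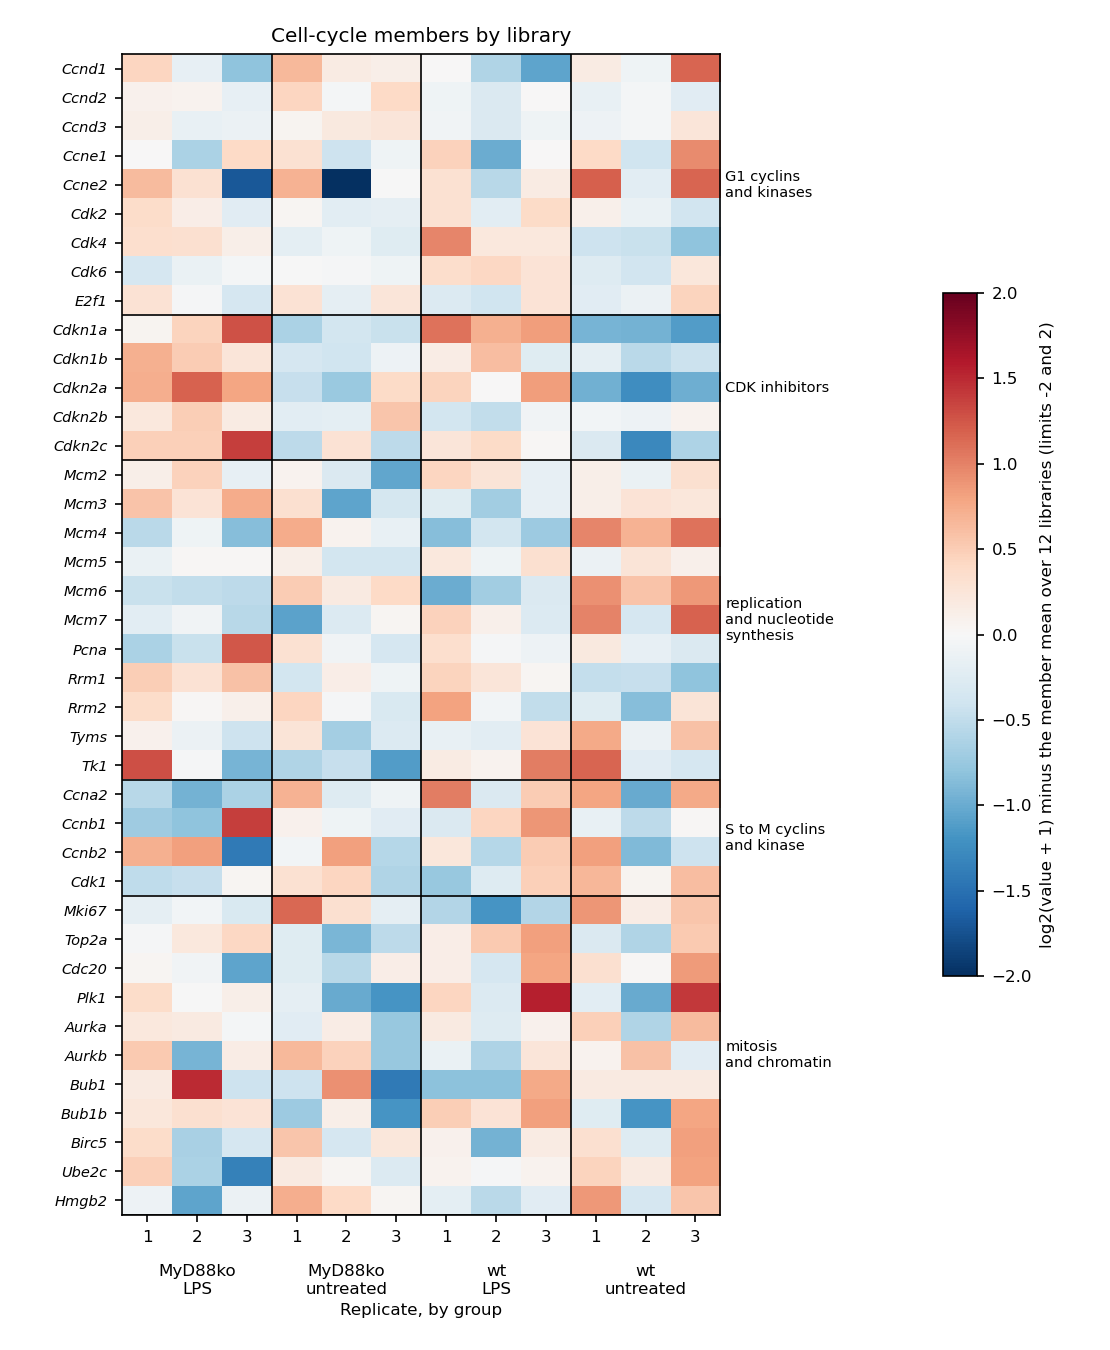
Each row is a member, grouped by role, and each column is a library, with the 3 replicates of each group side by side. Colour gives log2(value + 1) minus the member's mean over all 12 libraries. Cdkn1a and Cdkn2a are red in both LPS groups and blue in wt untreated cells, and Mcm4 and Mcm6 show the opposite colours in wt cells. Many replication and mitotic members are red in wt untreated replicates 1 and 3 and blue in replicate 2.

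With LPS, wt cells had higher levels of the CDK inhibitor genes Cdkn1a and Cdkn2a, of the kinase gene Cdk4 and of the ribonucleotide reductase gene Rrm1, and lower levels of the helicase genes Mcm4 and Mcm6. These were 6 of 39 tested members, called where the limma p, adjusted by Benjamini-Hochberg over all genes tested, was under 0.05. In bulk cultures a lower level can mean fewer cells in a phase or less RNA per cell, and these cannot be told apart. In the same comparison 19.2% of all genes tested were called, 9.55% higher and 9.66% lower, so the 15.4% of members called is near the background. In MyD88ko cells, Cdkn1a and Cdkn2a were again higher with LPS and Mcm6 lower, 3 of 39 members or 7.69%, against 5.98% of all genes tested (2.58% higher and 3.4% lower). The median log2 fold change of the members with LPS was 0.09 in MyD88ko cells and 0.02 in wt cells, and that of all genes tested was 0.00 and 0.01. With wt untreated replicate 2 alone the log2 fold changes in wt cells were 1.82 for Cdkn1a, 1.67 for Cdkn2a and −1.23 for Mcm6. They were 0.91 for Cdk4, 0.71 for Rrm1 and −1.34 for Mcm4, which lost their call there. All log2 fold changes were taken after adding 1 to each value.

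**Figure D2:**
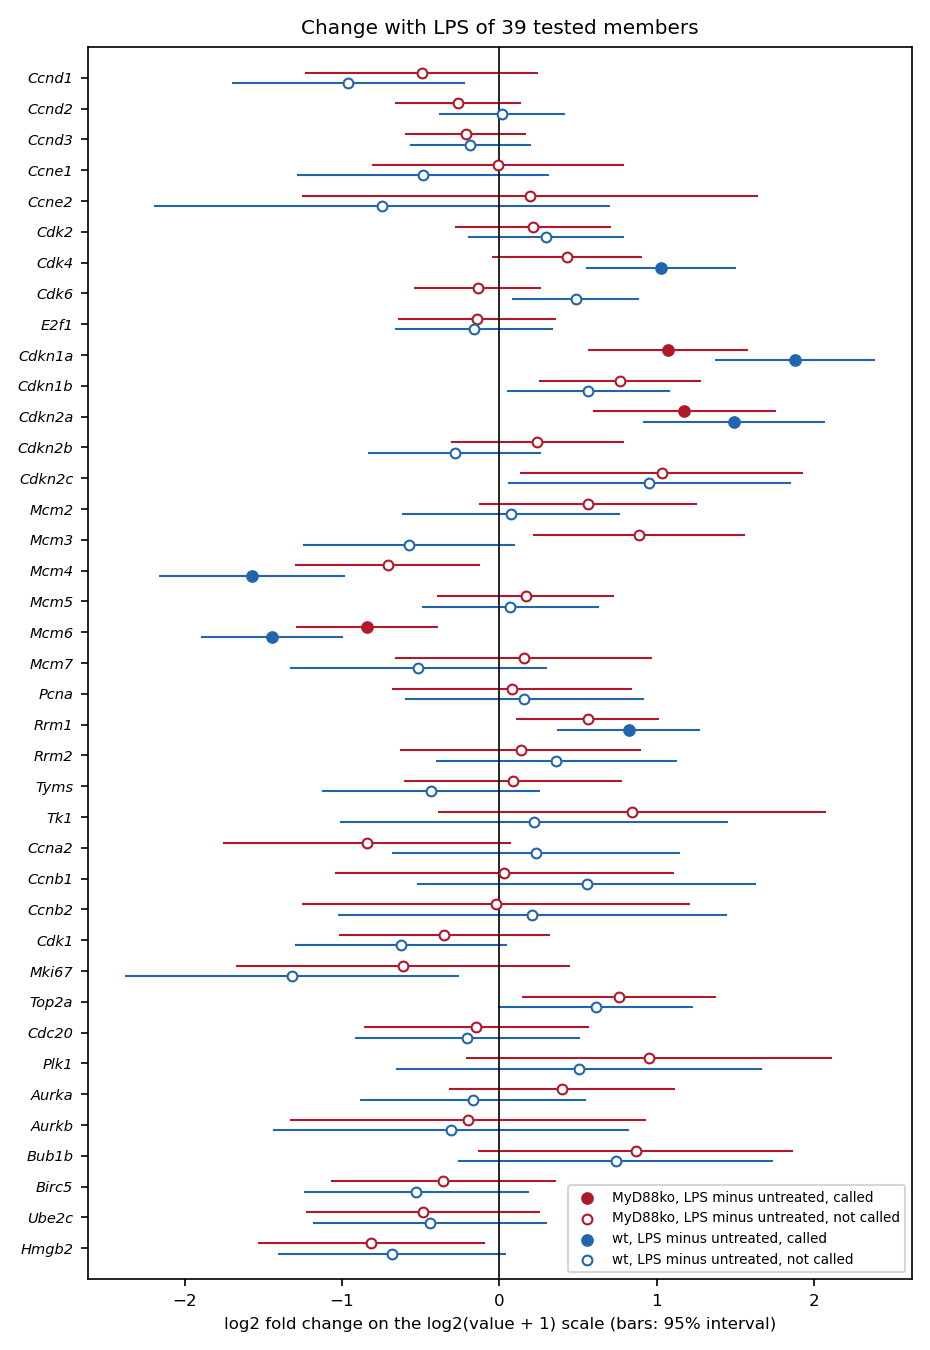
Points give the log2 fold change with LPS of each of 39 tested members in MyD88ko cells (red) and in wt cells (blue), and bars give the 95% interval from the limma fit. Filled points were called at an adjusted p under 0.05: 3 members in MyD88ko cells and 6 in wt cells.

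Among the CDK inhibitors, Cdkn1a (ENSMUSG00000023067, chromosome 17, 29090979 to 29100722, plus strand, mm10) encodes p21, which blocks several CDKs and binds the replication clamp PCNA. Cdkn1a had 1994, 2637 and 4661 normalized reads in MyD88ko cells with LPS, against 1243, 1494 and 1423 in MyD88ko untreated cells. It had 4104, 3170 and 3451 in wt cells with LPS, against 1014, 1003 and 889 in wt untreated cells. In both genotypes every LPS library was above every untreated one, and MyD88ko with LPS replicate 3 was the highest of all 12. The log2 fold change with LPS was 1.07 ± 0.24 (SE, n = 3 per group; limma adjusted p = 0.0118) in MyD88ko cells and 1.88 ± 0.24 (limma adjusted p = 3.28e-05) in wt cells, which is 2.10-fold and 3.67-fold. The response in MyD88ko cells minus that in wt cells was −0.81 (95% interval −1.53 to −0.09; limma adjusted p = 0.481), so the responses were not shown to differ. The call in MyD88ko cells was lost without MyD88ko untreated replicate 1 (limma adjusted p = 0.0598). The log2 fold change in wt cells was 1.82 with wt untreated replicate 2 alone (limma adjusted p = 0.00476).

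Cdkn2a (ENSMUSG00000044303, chromosome 4, 89274471 to 89294653, minus strand) makes the CDK4 and CDK6 inhibitor p16Ink4a and, from another start and reading frame, p19Arf, which protects p53. Both transcripts share their 3′ end, so 3′ reads do not tell them apart. Cdkn2a had 331, 455 and 347 in MyD88ko cells with LPS, against 145, 119 and 260 in MyD88ko untreated cells. It had 273, 201 and 358 in wt cells with LPS, against 102, 84 and 101 in wt untreated cells. The groups did not overlap in either genotype. The rise was 2.26-fold in MyD88ko cells (log2 fold change 1.18 ± 0.28 SE, limma adjusted p = 0.0149) and 2.81-fold in wt cells (1.49 ± 0.28, limma adjusted p = 0.000859). The call in MyD88ko cells was lost when MyD88ko LPS replicate 2, MyD88ko untreated replicate 1 or MyD88ko untreated replicate 2 was left out, with limma adjusted p of 0.072, 0.071 and 0.0959.

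The other 3 inhibitors were not called. Cdkn1b, which encodes p27, a brake that accumulates in quiescent cells, had 239, 207 and 173 in MyD88ko cells with LPS against 115, 110 and 136 in MyD88ko untreated cells, and 162, 225 and 123 in wt cells with LPS against 127, 100 and 108 in wt untreated cells. The MyD88ko groups did not overlap and the wt groups did. Its log2 fold changes were 0.77 in MyD88ko cells (95% interval 0.25 to 1.28, limma adjusted p = 0.0741) and 0.57 in wt cells (0.05 to 1.08, limma adjusted p = 0.119). Cdkn2c, the gene of p18Ink4c, had log2 fold changes of 1.03 in MyD88ko cells and 0.95 in wt cells at values of 9 to 63, with limma adjusted p of 0.171 and 0.132. Cdkn2b, the gene of p15Ink4b, had 0.24 and −0.28, with limma adjusted p of 0.651 and 0.497. In each genotype 2 of the 5 inhibitors were called, against 5.98% of all genes tested in MyD88ko cells and 19.2% in wt cells. The 5 inhibitors had median log2 fold changes with LPS of 1.03 in MyD88ko cells and 0.95 in wt cells. The medians of all genes tested were 0.00 and 0.01. Whether the inhibitors rose as a class was not tested.

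**Figure D3:**
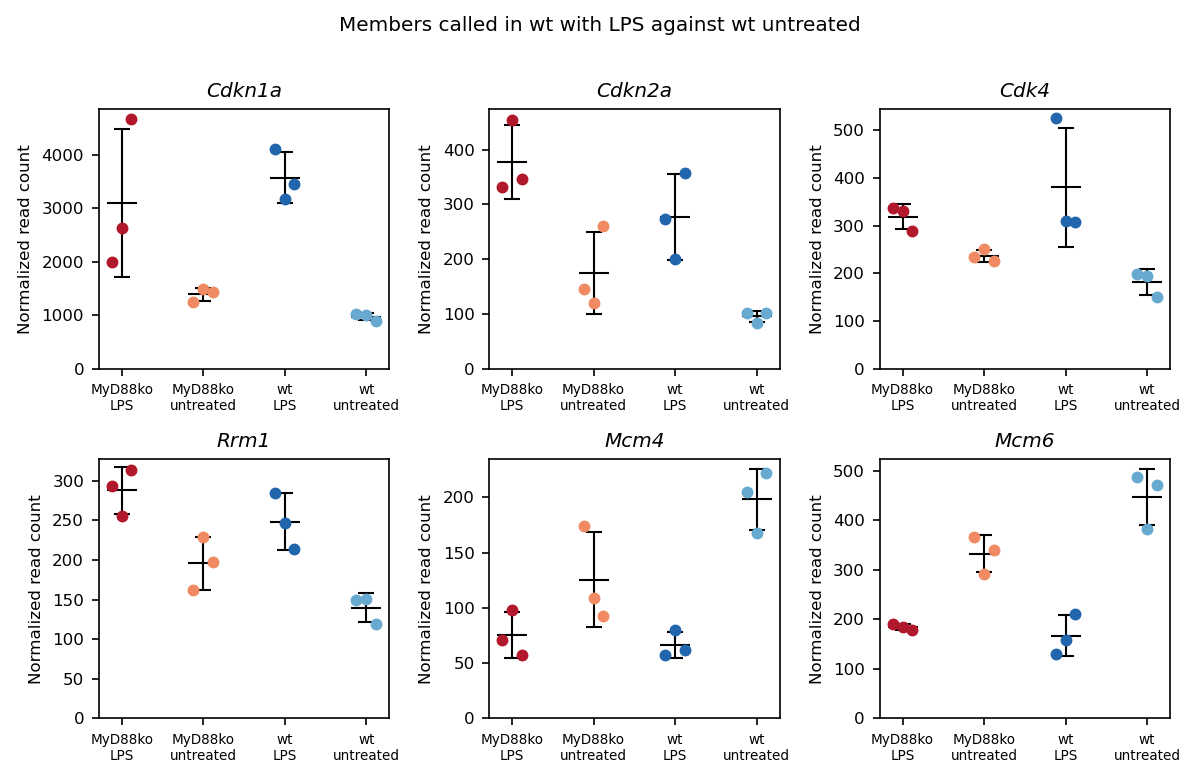
Normalized read counts of the 6 members called in wt cells with LPS against wt untreated cells, with a point for each library, a line for the group mean and bars for the SD (n = 3). For all 6 the wt LPS and wt untreated libraries do not overlap. The 6 were chosen by their call in this same comparison, so the lack of overlap is not separate support. The MyD88ko LPS and MyD88ko untreated libraries overlap for Mcm4 alone.

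Of the 9 cyclins, kinases and E2F of the G1 phase, Cdk4 was called in wt cells and none in MyD88ko cells. That is 11.1% in wt cells, against 19.2% of all genes tested. In MyD88ko cells 5.98% of all genes tested were called. Cdk4 (ENSMUSG00000006728, chromosome 10, 127063534 to 127067920, plus strand), the kinase partner of the D-type cyclins, had 336, 331 and 289 in MyD88ko cells with LPS, against 233, 250 and 225 in MyD88ko untreated cells. It had 525, 309 and 308 in wt cells with LPS, against 199, 195 and 151 in wt untreated cells. In both genotypes the LPS libraries were all above the untreated ones, and wt with LPS replicate 1 stood above the rest. The log2 fold change was 0.43 ± 0.23 SE in MyD88ko cells (limma adjusted p = 0.289) and 1.03 ± 0.23 in wt cells (limma adjusted p = 0.00347). The responses in MyD88ko and wt cells differed by −0.60 (95% interval −1.27 to 0.08, limma adjusted p = 0.585). Against wt untreated replicate 2 alone the wt value was 0.91 with a limma adjusted p of 0.0927. Cdk4 shares exon sequence with Tspan31 on the opposite strand, and whether reads were counted by strand is not given in the sources used here, so reads of these genes cannot be told apart. Tspan31 itself had a log2 fold change in wt cells of 0.47 (limma adjusted p = 0.22).

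The D-type cyclin gene Ccnd2 had the highest normalized read counts of the members, with 8766, 8690 and 7358 in MyD88ko cells with LPS, 11070, 8049 and 10893 in MyD88ko untreated cells, 7730, 6771 and 8265 in wt cells with LPS and 7454, 8000 and 7024 in wt untreated cells. The groups with and without LPS overlapped in both genotypes, with log2 fold changes of −0.26 in MyD88ko cells and 0.02 in wt cells. Cdk6, the other kinase of D-type cyclins, had 1213, 1393 and 1479 in MyD88ko cells with LPS against 1526, 1510 and 1443 in MyD88ko untreated cells, and 1941, 2027 and 1856 in wt cells with LPS against 1282, 1165 and 1780 in wt untreated cells. The wt groups did not overlap, and the difference missed the threshold (log2 fold change 0.49 ± 0.19 SE, limma adjusted p = 0.0856). Ccnd3 ranged over 1113 to 1616 in the 12 libraries, with log2 fold changes of −0.21 in MyD88ko cells and −0.18 in wt cells. Ccnd1, the cyclin that serum growth factors induce, had a log2 fold change of −0.49 in MyD88ko cells and −0.96 in wt cells (limma adjusted p = 0.458 and 0.0649). Its wt untreated replicate 3 stood at 304, against 152 and 128 in replicates 1 and 2. E2f1, Cdk2, Ccne1 and Ccne2 had log2 fold changes between −0.75 and 0.30 in both genotypes, and none of them was called.

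Among 11 tested replication members, Rrm1 was called higher and Mcm4 and Mcm6 lower in wt cells. That is 27.3% called, against 19.2% of all genes tested, of which 9.55% were higher and 9.66% lower. In MyD88ko cells 9.09% were called, against 5.98%. MCM2 to MCM7 form the ring-shaped helicase that is loaded on origins before replication, and the 6 genes did not move together. Mcm6 (ENSMUSG00000026355, chromosome 1, 128331590 to 128359664, minus strand) had 190, 184 and 179 in MyD88ko cells with LPS, against 366, 292 and 340 in MyD88ko untreated cells. It had 129, 159 and 211 in wt cells with LPS, against 488, 383 and 472 in wt untreated cells. Every LPS library was below every untreated library of either genotype. Mcm6 was 1.79-fold lower in MyD88ko cells (log2 fold change −0.84 ± 0.22 SE, limma adjusted p = 0.0243) and 2.72-fold lower in wt cells (−1.44 ± 0.22, limma adjusted p = 0.000125). The wt value was −1.23 with wt untreated replicate 2 alone (limma adjusted p = 0.0229). In MyD88ko cells the call was lost without MyD88ko LPS replicate 2, MyD88ko untreated replicate 1 or MyD88ko untreated replicate 3 (limma adjusted p = 0.0674, 0.104 and 0.0864).

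Mcm4 (ENSMUSG00000022673, chromosome 16, 15623897 to 15637400, minus strand) had 71, 98 and 57 in MyD88ko cells with LPS, against 174, 109 and 93 in MyD88ko untreated cells. It had 57, 80 and 62 in wt cells with LPS, against 205, 168 and 222 in wt untreated cells. The MyD88ko groups overlapped and the wt groups did not. Mcm4 was 2.97-fold lower in wt cells (log2 fold change −1.57 ± 0.28 SE, limma adjusted p = 0.000643), and its value in MyD88ko cells was −0.71 ± 0.28 (limma adjusted p = 0.148). The difference between the responses was 0.86 (95% interval 0.03 to 1.70, limma adjusted p = 0.532). Against wt untreated replicate 2 alone the wt value was −1.34 with a limma adjusted p of 0.0609.

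The other 4 helicase genes were not called. Mcm2 had log2 fold changes of 0.56 in MyD88ko cells and 0.07 in wt cells, Mcm5 0.17 and 0.07, and Mcm7 0.15 and −0.52. Mcm3 had 98, 79 and 110 in MyD88ko cells with LPS, 82, 31 and 51 in MyD88ko untreated cells, 55, 40 and 58 in wt cells with LPS, and 71, 79 and 77 in wt untreated cells. Its log2 fold changes had opposite signs, 0.89 in MyD88ko cells and −0.58 in wt cells. The difference of 1.47 (95% interval 0.51 to 2.42) had the smallest unadjusted p of the members in that test, 0.0044, and a limma adjusted p of 0.35. Mcm3 was singled out after its values were seen.

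**Figure D4:**
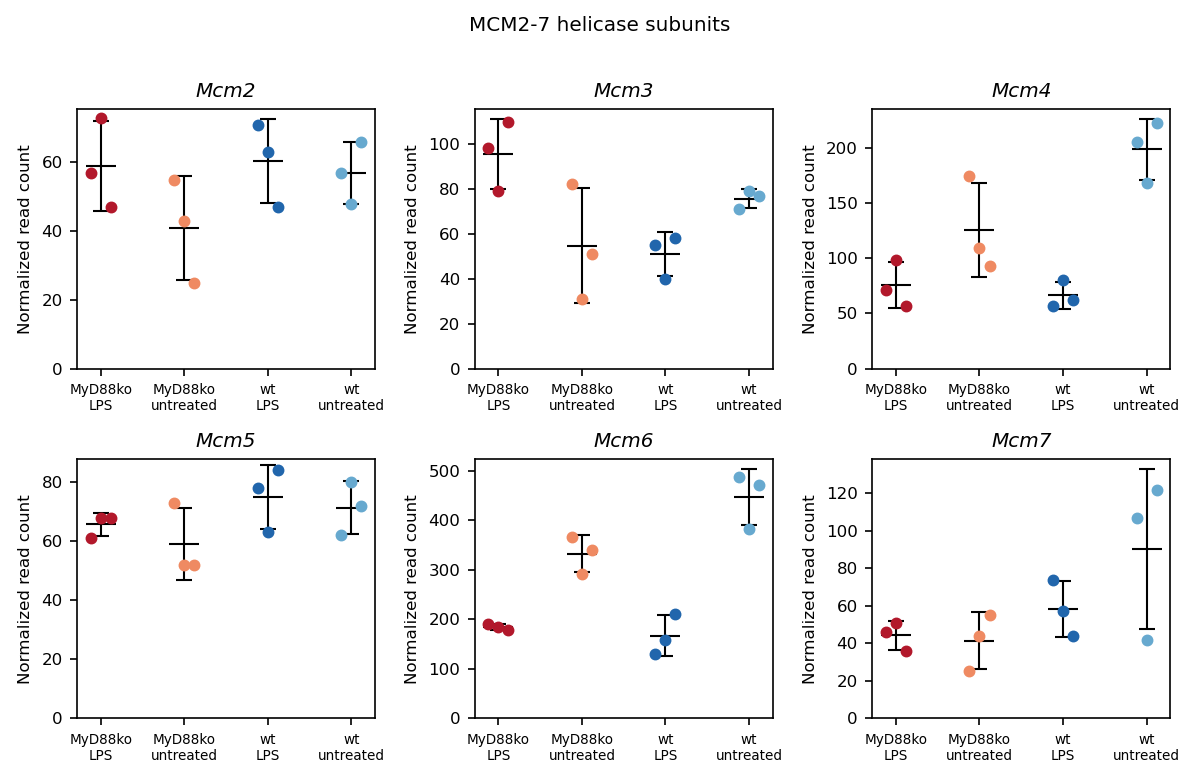
Normalized read counts of the 6 MCM helicase genes, with a point for each library, a line for the group mean and bars for the SD (n = 3). Mcm4 and Mcm6 are lower in wt cells with LPS than in wt untreated cells, with no overlap, whereas Mcm2 and Mcm5 overlap between all 4 groups.

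Promoter sequences show what these genes share besides their role. Of the 40 members, 34 had a window in the RefSeq table for GRCm38.p6, from 250 bases before to 50 after the transcription start. Motif words of 3 kinds were searched on both strands. The E2F-type word was TTCCCGC, with TTCGCGC as a first variant, TTGCCGC as a further one and TTGGCGC as the last. The CHR-type word, of the cell-cycle genes homology region that DREAM and its activating counterparts bind, was TTTGAA or its variant TTCGAA. The third was the CCAAT box, which NF-Y binds. E2F-type words, which can overlap each other, were in 12 of 34 members (35.3%), against 9.57% of 32851 windows of the table. CHR-type words were in 14 members (41.2%), against 19.2% of windows, and CCAAT in 25 (73.5%), against 37.4%. A member was counted if any of its windows held the word, whereas the background counts single windows. Members with several windows, such as Mcm7 and Cdkn2a, therefore had more chances of a match, and the shares are not fully alike. By role, E2F-type words were in 6 of 10 replication members with a window, and CHR-type words in 9 of 10 members of mitosis and chromatin, 2 of 10 of replication and 0 of 6 of the G1 phase. These matches are descriptions of letters, not binding sites.

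The bases before the start are shown for Mcm6, which was lower with LPS, for Mcm5, which has the same kinds of words and was not called, and for Cdk1, which has all 3 kinds and was not called. Capitals mark the E2F-type, CHR-type and CCAAT words on either strand, and each run is read 5′ to 3′ on the strand of the gene. The windows are chr1:128359706-128359955 (minus strand), chr8:75109259-75109508 (plus strand) and chr10:69352939-69353162 (minus strand), from RefSeq, GRCm38.p6. The last 26 bases of the Cdk1 window lie inside the gene by the coordinates that the authors deposited, and are left out.
Mcm6: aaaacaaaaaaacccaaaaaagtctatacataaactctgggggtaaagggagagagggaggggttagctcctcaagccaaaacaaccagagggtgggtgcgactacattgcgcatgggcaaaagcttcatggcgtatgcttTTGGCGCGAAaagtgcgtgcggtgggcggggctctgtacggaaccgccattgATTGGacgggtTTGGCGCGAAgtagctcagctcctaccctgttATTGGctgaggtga
Mcm5: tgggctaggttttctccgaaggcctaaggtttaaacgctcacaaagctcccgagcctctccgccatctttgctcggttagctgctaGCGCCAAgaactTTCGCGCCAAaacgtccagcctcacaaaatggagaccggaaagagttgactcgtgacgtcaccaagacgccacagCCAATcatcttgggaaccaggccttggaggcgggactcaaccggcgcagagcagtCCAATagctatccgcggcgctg
Cdk1: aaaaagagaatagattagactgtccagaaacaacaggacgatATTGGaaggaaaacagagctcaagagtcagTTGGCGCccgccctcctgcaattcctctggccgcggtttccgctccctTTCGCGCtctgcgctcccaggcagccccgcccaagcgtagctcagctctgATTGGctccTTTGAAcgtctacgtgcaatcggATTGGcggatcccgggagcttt
The Mcm6 run holds 4 E2F-type words, overlapping in pairs, and 2 CCAAT words. The Mcm5 run holds 3 E2F-type and 2 CCAAT words, at log2 fold changes with LPS of 0.17 in MyD88ko cells and 0.07 in wt cells. The Cdk1 run holds 2 E2F-type, 1 CHR-type and 3 CCAAT words.

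Rrm1 (ENSMUSG00000030978, chromosome 7, 102441695 to 102469771, plus strand) encodes the large subunit of ribonucleotide reductase, the enzyme that makes deoxyribonucleotides. It had 294, 256 and 314 in MyD88ko cells with LPS, against 162, 229 and 197 in MyD88ko untreated cells. It had 285, 247 and 214 in wt cells with LPS, against 150, 151 and 119 in wt untreated cells. The groups did not overlap in either genotype. The rise in wt cells was 1.77-fold (log2 fold change 0.82 ± 0.22 SE, limma adjusted p = 0.0115), and the value in MyD88ko cells was 0.56 ± 0.22 (limma adjusted p = 0.137). The wt call was lost without wt LPS replicate 1 (limma adjusted p = 0.0611) and with wt untreated replicate 2 alone (0.71, limma adjusted p = 0.179). Rrm2, the small subunit whose level is the one tied to S phase, had log2 fold changes of 0.14 in MyD88ko cells and 0.36 in wt cells and was not called. Tyms and Tk1, which supply thymidine nucleotides, had values of 33 to 91 and 6 to 36 and were not called.

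Pcna, the sliding clamp of DNA polymerase, had 137, 156 and 506 in MyD88ko cells with LPS, 265, 203 and 170 in MyD88ko untreated cells, 270, 211 and 199 in wt cells with LPS and 245, 190 and 175 in wt untreated cells. MyD88ko with LPS replicate 3 alone stood above the other 11 libraries. The Pcna pseudogene Pcna-ps2 had 262 in that library, against 44 and 53 in the other MyD88ko libraries with LPS. Reads of such near-identical copies can be split between them in counting, so the level of Pcna is uncertain. Its log2 fold changes were 0.08 in MyD88ko cells and 0.16 in wt cells.

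None of the 14 tested members of the S to M cyclins, of mitosis and of chromatin was called by limma with LPS in either genotype. Of all genes tested, 5.98% were called in MyD88ko cells and 19.2% in wt cells. An unadjusted p under 0.05 was held by 2 members in MyD88ko cells and 1 in wt cells. Of the 12385 genes tested, 2600 in MyD88ko cells and 3966 in wt cells had one. Cdk1, the kinase that starts mitosis, had 104, 107 and 152 in MyD88ko cells with LPS, 182, 199 and 97 in MyD88ko untreated cells, 87, 123 and 207 in wt cells with LPS and 236, 153 and 227 in wt untreated cells. All groups overlapped with and without LPS. Its log2 fold changes were −0.35 (95% interval −1.02 to 0.32) in MyD88ko cells and −0.62 (−1.30 to 0.05) in wt cells. Its partners Ccna2, Ccnb1 and Ccnb2 ranged over 27 to 113, 13 to 63 and 8 to 41 in the 12 libraries.

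Birc5, the gene of survivin in the chromosomal passenger complex, had 304, 151 and 187 in MyD88ko cells with LPS, 347, 187 and 278 in MyD88ko untreated cells, 250, 122 and 265 in wt cells with LPS and 295, 198 and 416 in wt untreated cells. Plk1, a mitotic kinase, had 151, 117 and 128 in MyD88ko cells with LPS, 103, 58 and 51 in MyD88ko untreated cells, 158, 97 and 345 in wt cells with LPS and 101, 58 and 313 in wt untreated cells. For Plk1, replicate 3 of both wt groups stood above every other library. Top2a, the topoisomerase that untangles replicated chromosomes, had 110, 129 and 149 in MyD88ko cells with LPS, 94, 59 and 77 in MyD88ko untreated cells, 122, 161 and 197 in wt cells with LPS and 91, 73 and 161 in wt untreated cells. The LPS libraries of MyD88ko cells were all above the untreated ones for Plk1 and Top2a, with log2 fold changes of 0.95 and 0.76 and limma adjusted p of 0.34 and 0.139.

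Mki67, the gene of the proliferation marker Ki-67, was low in all libraries, at 5 to 29. It had 11, 12 and 10 in MyD88ko cells with LPS against 29, 16 and 11 in MyD88ko untreated cells, and 8, 5 and 8 in wt cells with LPS against 24, 14 and 19 in wt untreated cells. The wt groups did not overlap, and the log2 fold change was −1.32 (95% interval −2.38 to −0.26, limma adjusted p = 0.0762). The remaining members of mitosis and chromatin, Cdc20, Aurka, Aurkb, Bub1b, Ube2c and Hmgb2, had log2 fold changes of −0.81 to 0.87 with LPS.

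MyD88ko cells were next set against wt cells in each state, to ask whether loss of the adaptor moved the cell cycle genes. Untreated, 0 of 39 members were called by limma, against 1.88% of all genes tested. With LPS, 0 of 39 were called by limma, against 1.49%. The difference between the LPS responses of MyD88ko and wt cells was called for 0 of 39 members, against 0.0161% of all genes tested. In these 3 comparisons 6, 4 and 4 members had an unadjusted p under 0.05. Of the 12385 genes tested, 1923, 1486 and 1137 had one. Untreated, Cdkn2a had the smallest unadjusted p of the members, 0.0105, with 145, 119 and 260 in MyD88ko untreated cells against 102, 84 and 101 in wt untreated cells and no overlap (log2 fold change 0.79, 95% interval 0.21 to 1.37, limma adjusted p = 0.158). With LPS the smallest unadjusted p-values were those of Mcm3, Cdk6, Ccna2 and Cdkn2b. Their log2 fold changes were 0.90, −0.52, −1.13 and 0.60, with limma adjusted p of 0.232, 0.255, 0.276 and 0.357. In that comparison the interval for Cdkn1a was −0.80 to 0.22 around −0.29, and for Mcm6 −0.28 to 0.63 around 0.18. Between the untreated groups it was 0.01 to 1.02 around 0.52 for Cdkn1a (limma adjusted p = 0.314). For Mcm6 it was −0.88 to 0.03 around −0.43 (limma adjusted p = 0.355). Rrm1 and Mcm4 had untreated log2 differences of 0.48 and −0.70 (limma adjusted p = 0.298 and 0.226). Comparisons that share a control group are not independent, so their values for a member are not evidence for each other.

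The genotype difference of the replication and mitotic members, 25 of them tested, was also described library by library. The 25 members come from the same libraries and are not replicates of a condition. Untreated, 19 of 25 had a negative log2 difference of MyD88ko minus wt, with a median of −0.41, against 49.9% negative and a median of 0.00 over all genes tested. None of the 25 was called, and 3 had an unadjusted p under 0.05, against 1923 of 12385 genes tested. The median log2 deviation of these members from their own means over 12 libraries was 0.32 in wt untreated replicate 1, −0.23 in replicate 2 and 0.56 in replicate 3. In MyD88ko untreated cells it was 0.18, −0.07 and −0.31. With LPS it was 0.09, −0.06 and −0.12 in MyD88ko cells and 0.13, −0.26 and 0.16 in wt cells. Replicate 2 was the lowest of the wt untreated libraries for 19 of the 25 members, against 31.8% of all genes tested. Such an uneven split was also seen in other groups, where MyD88ko untreated replicate 3 and wt LPS replicate 2 were each the lowest for 15 of 25, against 29.6% and 32.2% of all genes tested. Replicates 1 and 3 are the wt untreated libraries with the epithelial marker sums of 390 and 194 and with mesenchymal sums of 52243 and 43753, against 8 and 101442 in replicate 2. The part of these in the result was not tested. Without wt untreated replicate 1, 17 of 25 members were negative, with a median of −0.36, without replicate 2, 21 of 25 with −0.60, and without replicate 3, 17 of 25 with −0.21. With replicate 2 alone, 12 of 25 were negative and the median was 0.04.

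The same library choice bore on the LPS comparison in wt cells. With all wt untreated libraries 13 of the 25 members were lower with LPS, with a median log2 fold change of −0.17. Without wt untreated replicate 1, 14 of 25 were lower, with a median of −0.03, without replicate 2, 17 of 25 with −0.36, and without replicate 3, 12 of 25 with 0.03. With wt untreated replicate 2 alone 8 of 25 were lower and the median was 0.24. In MyD88ko cells, where these libraries do not enter, 11 of 25 were lower and the median was 0.08.

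Genes linked to the members were described from lists by role. Among 20 tested genes of p53 and its targets, 6 rose and 2 fell with LPS in wt cells, which is 8 of 20 called against 19.2% of all genes tested. In MyD88ko cells 0 were called by limma, against 5.98% of all genes tested. Of the 20, 6 had an unadjusted p under 0.05, against 2600 of 12385 genes tested. Sesn2, a stress-induced inhibitor of growth signalling, had 74, 83 and 73 in MyD88ko cells with LPS against 38, 33 and 35 in MyD88ko untreated cells, and 148, 217 and 101 in wt cells with LPS against 32, 40 and 17 in wt untreated cells. The groups did not overlap in either genotype, and the rise in wt cells was 5.14-fold (limma adjusted p = 7.87e-05). Bax, which drives apoptosis, rose 2.63-fold in wt cells (limma adjusted p = 0.00288). Zmat3, an RNA-binding p53 target, rose 1.83-fold and Ephx1, an epoxide hydrolase, 1.95-fold (limma adjusted p = 0.00271 and 0.00206). These genes were named by smallest p. Of the 20, 11 had a positive and 9 a negative log2 fold change in wt cells, with a median of 0.21. Pmaip1 was lower, at 94, 94 and 123 in wt cells with LPS against 155, 162 and 192 in wt untreated cells. Mdm2 had a mean of 1260 in both wt groups. With wt untreated replicate 2 alone 3 of the 20 were called, all higher, namely Sesn2, Bax and Tnfrsf10b, and 973 of 12352 genes tested.

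Of 21 regulators of the RB, E2F and DREAM families, 4 fell in wt cells and 0 rose, and the 19.0% called is near the 19.2% of all genes tested. In MyD88ko cells 0 were called by limma, against 5.98% of all genes tested. Of the 21, 3 had an unadjusted p under 0.05, against 2600 of 12385 genes tested. Rb1, the retinoblastoma gene, had 65, 107 and 90 in MyD88ko cells with LPS against 176, 128 and 95 in MyD88ko untreated cells, and 55, 85 and 82 in wt cells with LPS against 170, 159 and 174 in wt untreated cells. The MyD88ko groups overlapped and the wt groups did not (log2 fold change in wt cells −1.19 ± 0.28 SE, limma adjusted p = 0.00487). E2f3, an activating E2F, was 2.00-fold lower and Rbl1, a relative of Rb1 in DREAM, 2.61-fold lower (limma adjusted p = 0.0115 and 0.0256). Lin37, a DREAM subunit, was at the edge of the threshold with overlapping groups (limma adjusted p = 0.0496). With wt untreated replicate 2 alone none of these 4 was called by limma (adjusted p = 0.114, 0.228, 0.29 and 0.0731). Of the 19 alternatives, E2f3 lost its call in 2, among them without wt untreated replicate 1 (limma adjusted p = 0.0535), Rbl1 in 5, among them without wt LPS replicate 1 or 2 or wt untreated replicate 1 or 3 (0.0686 to 0.127), and Lin37 in 14.

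Among 32 further replication genes 1 rose and 2 fell in MyD88ko cells, and 0 rose and 2 fell in wt cells. That is 9.38% called in MyD88ko cells against 5.98% of all genes tested, and 6.25% in wt cells against 19.2%. Of these calls, Rpa2, higher in MyD88ko cells, was lost in 11 of 19 alternatives, Pold1, lower in MyD88ko cells, in 10, and Fen1, lower in wt cells, in 13. Slbp, which binds the ends of histone messages in S phase, fell in both, with 31, 39 and 35 in MyD88ko cells with LPS against 94, 88 and 92 in MyD88ko untreated cells, and 46, 44 and 39 in wt cells with LPS against 97, 103 and 115 in wt untreated cells. The groups did not overlap in either genotype, at 2.57-fold lower in MyD88ko cells and 2.41-fold lower in wt cells (limma adjusted p = 0.00398 and 0.00205). Among 36 further genes of mitosis and chromatin 0 rose and 1 fell in MyD88ko cells, and 1 rose and 3 fell in wt cells. That is 2.78% called in MyD88ko cells against 5.98% of all genes tested, and 11.1% in wt cells against 19.2%. H2afz, the gene of histone H2A.Z, fell in both, with 1387, 1135 and 1033 in MyD88ko cells with LPS against 2940, 2290 and 2068 in MyD88ko untreated cells, and 1059, 1113 and 1159 in wt cells with LPS against 4339, 2790 and 3262 in wt untreated cells. It was 2.04-fold lower in MyD88ko cells and 3.07-fold lower in wt cells (limma adjusted p = 0.00562 and 3.19e-05). H2afz was still called with wt untreated replicate 2 alone and Slbp was not (limma adjusted p = 0.00701 and 0.0652). Of the other genes of mitosis and chromatin called in wt cells, Ncapd2, the riser, was still called there (log2 fold change 1.55). It lost its call in 6 of 19 alternatives. Cdc25b and the chromatin gene Hmgb1, which fell, were not called with wt untreated replicate 2 alone (log2 fold changes −0.98 and −0.91).

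Of 12 Myc network genes, Odc1, the ornithine decarboxylase gene and a Myc target, fell in both genotypes, 1.99-fold in MyD88ko cells and 2.54-fold in wt cells (limma adjusted p = 0.00554 and 0.000112), and Mnt fell in wt cells. That is 8.33% called in MyD88ko cells and 16.7% in wt cells, against 5.98% and 19.2% of all genes tested. With wt untreated replicate 2 alone Odc1 was called and Mnt was not (limma adjusted p = 0.0175 and 0.0544). Of 16 genes of growth arrest and FoxO signalling, 1 rose in MyD88ko cells and 4 rose and 1 fell in wt cells, which is 6.25% called against 5.98% of all genes tested in MyD88ko cells and 31.2% against 19.2% in wt cells. Klf9, a transcription factor, was 4.53-fold higher with LPS in wt cells, at 79, 151 and 93 in wt cells with LPS against 18, 16 and 37 in wt untreated cells (limma adjusted p = 0.000273). It was the only gene of this list called in wt cells with wt untreated replicate 2 alone (limma adjusted p = 0.00197); Tob1, Gas7 and Foxo3 were among those that lost their call (0.293, 0.129 and 0.0703). Gas1 and Gas7 of this list differed between genotypes with LPS, 12.5% of the list against 1.49% of all genes tested. Gas1, a membrane protein first found in growth-arrested fibroblasts, had 3, 11 and 2 in MyD88ko cells with LPS against 57, 67 and 57 in wt cells with LPS (11.7-fold lower, limma adjusted p = 0.000977). Gas7 had 39, 23 and 24 in MyD88ko cells with LPS against 99, 116 and 66 in wt cells with LPS (3.20-fold lower, limma adjusted p = 0.0201). Without LPS, Gas1 had 15, 17 and 14 in MyD88ko cells against 17, 64 and 30 in wt cells. Gas7 had 13, 12 and 20 against 31, 34 and 32 (log2 difference −1.09, limma adjusted p = 0.138). The Gas7 call with LPS was lost without MyD88ko LPS replicate 2 or 3 or wt LPS replicate 1 or 2 (limma adjusted p = 0.0948, 0.0667, 0.114 and 0.115), and the Gas1 call was kept in all alternatives run. Between the untreated groups 1 of the 20 p53 genes was called, Plk2, or 5.0% against 1.88% of all genes tested. Plk2 was lower in MyD88ko cells (log2 difference −1.40, limma adjusted p = 0.0403) and lost its call in 10 of 19 alternatives. The difference between LPS responses was called by limma for 0 of 137 tested genes of these 6 lists. Of the 137, 10 had an unadjusted p under 0.05, against 1137 of 12385 genes tested.

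**Figure D5:**
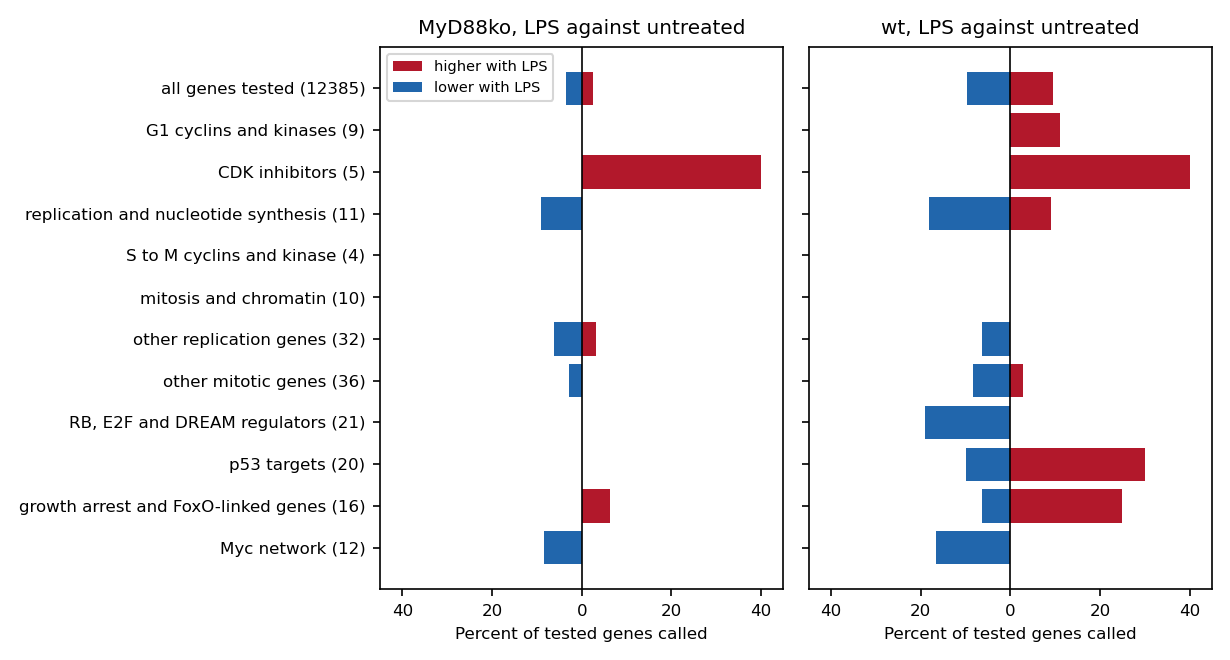
Bars give the percent of tested genes called higher (red, to the right) or lower (blue, to the left) with LPS at an adjusted p under 0.05, in MyD88ko cells (left) and wt cells (right), for the 5 role groups of members and 6 lists of linked genes, with the number tested in brackets. All genes tested stand at the top, with 2.58% higher and 3.4% lower in MyD88ko cells and 9.55% higher and 9.66% lower in wt cells.

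The authors' deposited table gives adjusted p-values from DESeq for the same members. By it, 4 members were under 0.05 in wt cells with LPS against wt untreated cells, namely Cdkn1a (0.000748), Mcm6 (0.0161), Cdkn2a (0.0211) and Mcm4 (0.0345). In the authors' deposited table Cdk4 had 0.141 and Rrm1 0.346. For MyD88ko cells with LPS against untreated the smallest value of a member in the authors' deposited table was 0.296, and 0 members were under 0.05 in that comparison and in both comparisons of genotypes.

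For 14 members, among them Cdk4, Mcm7, Ccna2 and Cdkn1a, an exon of another gene lies on the opposite strand.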

How the data were processed

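Bowtie2, TopHat2 and DESeq, with the mouse build mm10, are listed in the submitters' processing notes; versions and settings are not given in the sources used here. Each of 4 tables that the authors deposited covers 1 comparison and gives scores, namely read counts normalized and rounded to whole numbers, and not raw counts. Where tables repeat a value (166719 cases), 0 disagreed. Each table also has a p-value, adjusted by the authors, for every gene. Depth per library is not known from normalized values.

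From the tables, log2(value + 1) was fitted with limma 3.58.1 (limma-trend, robust empirical Bayes) in R 4.3.3, over all 12 libraries together, each group having its own term, with 8 residual degrees of freedom. The 12385 genes tested had values in every library and averaged 10 or more in some group. Genes were called at a two-sided Benjamini-Hochberg adjusted p under 0.05. The code was tested on simulated data. Named are all members called and up to 3 further members per role group with the highest mean, with every member accounted for, up to 4 genes per linked list by smallest p, and Myd88. The members and lists were chosen with earlier results of these data known. Alternatives were a TMM-like rescaling, no filter, pseudocounts of 0.5 and 5, only the groups compared, a replicate block, leaving out each replicate, and wt untreated replicate 2 alone. Coordinates are the files' own (mm10); all 40 members were found in GENCODE M21, 36 at the same coordinates.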

Additional observations from a re-analysis of the deposited data

How the results depend on the processing

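Over the 19 alternatives per value (18 for the difference between responses), the log2 fold changes of the 9 member calls gave 171 values, of which 160 stayed called, 11 were no longer called and 0 changed sign. With wt untreated replicate 2 alone, in wt cells with LPS against untreated, 3 members and 973 genes were called; 36 genes were called for MyD88ko against wt untreated and 14 for the difference between responses, which had 2 in the full fit and 0 with a pseudocount of 0.5. Leaving out each replicate gave 1 to 3 members and 337 to 791 genes for LPS in MyD88ko cells, 6 to 8 members and 1570 to 2722 genes for LPS in wt cells, 0 to 1 members and 64 to 416 genes for MyD88ko against wt untreated, 0 members and 85 to 196 genes for MyD88ko against wt with LPS, and 0 members and 0 to 44 genes for the difference between responses. The lone member for MyD88ko against wt untreated was Mcm7, called without wt untreated replicate 2, which held 42 against 107 and 122 in replicates 1 and 3. Ccnd1 (4 settings), Top2a and Cdk6 gained a call in wt cells, and Mcm3 in MyD88ko cells. Without MyD88ko untreated replicate 1, Cdkn1a, Cdkn2a and Mcm6 all lost their call in MyD88ko cells (limma adjusted p = 0.0598, 0.071 and 0.104). Mcm3 was the only member called for LPS in MyD88ko cells in that setting (limma adjusted p = 0.0444). Whether replicate numbers pair libraries is not known. The 18 same-numbered pairs had correlations of −0.114 to 0.171, 2 of them over 0.1. The highest, 0.171, was that of replicate 2 of wt LPS and wt untreated cells. Against wt untreated replicates 1 and 3, wt LPS replicate 2 had −0.104 and −0.0806. Low values over all groups cannot decide whether libraries were paired within wt cells. With the replicate block the same 6 and 3 members were called for LPS in wt and in MyD88ko cells. The TMM-like rescaling moved the median of all genes by at most 0.0273. The cause of these changes was not tested.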
